A study of Mus musculus with 4 samples.

Results

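The 45 genes described here encode the DNA replication machinery, from the proteins that mark origins to the polymerases at the fork and the enzymes that supply deoxynucleotides. They were taken by name from the array's own annotation, with 1 value per gene from its brightest probe, and form 45 of 28095 gene names on the array, of which 14733 had a probe that could be tested. By role, 6 belong to origin licensing, 15 to the replicative helicase and its activation, 20 to the enzymes of the fork and 4 to nucleotide supply. RNA came from LSK cells (lineage-negative Sca-1+ c-Kit+ bone marrow cells, written KSL in some of the labels), the mouse population that holds hematopoietic stem cells and multipotent progenitors. Meis1-KO cells came from Mx1-Cre positive Meis1fl/fl mice, in which exon 8 of *Meis1* is deleted when poly(I:C), an interferon inducer, switches on the Cre. Meis1-WT cells came from Meis1fl/fl mice without Cre, so both groups carry the floxed allele on a C57BL/6J background. The sample labels give mice of both kinds, aged 4 to 8 weeks, 4 injections of poly(I:C) that were 1 day apart, each of 1.5 ug per g of body weight, whereas the array methods call the controls sham-treated, and the difference between the descriptions could not be settled here. The *Mx1* promoter answers to interferon in many tissues, so the deletion is not limited to blood cells. Each array measured a pool of 6 mice taken 1 week after treatment, and there were 2 arrays per genotype. By limma, each p-value therefore sets a difference against the spread between 2 pools per genotype, moderated with a spread borrowed from all tested probes. A lower level in such RNA cannot tell fewer expressing cells from less RNA per cell.

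Replication starts when the origin recognition complex, with Cdc6 and Cdt1, loads the Mcm2 to Mcm7 ring on DNA while the cell is in G1. In S phase the kinase Cdc7 with its partner Dbf4, and the factors Cdc45 and GINS, turn the ring into a working helicase, and DNA polymerases alpha, delta and epsilon then copy the strands behind it with the sliding clamp Pcna. Most of these genes are transcribed under E2F factors as a cell leaves quiescence, which makes their RNA a common readout of cycling in stem cells that are largely at rest. Meis1 is a homeodomain factor of blood stem cells, and the comparison of the genotypes asks whether the RNA of this machinery differs in LSK cells without it.

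The promoter sequences of the group were searched for the motifs of cell cycle genes and of Meis1. RefSeq promoter windows of 250 bases before the start site (GRCm38.p6) were matched for 37 of the 45 genes, with 44 windows in all, since some genes have more than 1 start. *Gmnn*, *Mcm4*, *Gins1*, *Gins2*, *Gins4*, *Rfc2*, *Prim2* and *Pole* had no entry. The E2F motif was searched as TTTGGCGC, TTTCCCGC, TTTCGCGC or TTTGCCGC on both strands, and overlapping matches were kept. It was present in 8 of 44 windows (18.2%), against 611 of 32851 windows of all genes (1.86%). By role it was found in 4 of 13 helicase windows, 2 of 6 licensing windows, 2 of 21 fork enzyme windows and 0 of 4 nucleotide supply windows. The 5 windows printed here hold the E2F matches of the licensing genes and of the Mcm ring. Each is written 5′ to 3′ on the gene's strand and ends at the base before the start site, with the E2F matches in capitals.
Orc1l, chr4:108579204-108579453, plus strand: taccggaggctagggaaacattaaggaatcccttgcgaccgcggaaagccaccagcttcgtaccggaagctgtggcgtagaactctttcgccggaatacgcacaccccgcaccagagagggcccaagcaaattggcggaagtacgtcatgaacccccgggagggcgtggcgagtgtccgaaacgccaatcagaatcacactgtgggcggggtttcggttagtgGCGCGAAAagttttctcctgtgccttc
Cdc6, chr11:98907901-98908150, plus strand: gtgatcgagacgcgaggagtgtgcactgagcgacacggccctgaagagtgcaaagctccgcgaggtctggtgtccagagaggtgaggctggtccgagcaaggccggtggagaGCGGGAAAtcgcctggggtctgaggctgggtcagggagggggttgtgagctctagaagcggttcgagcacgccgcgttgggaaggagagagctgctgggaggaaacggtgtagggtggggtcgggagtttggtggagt
Mcm5, chr8:75109259-75109508, plus strand: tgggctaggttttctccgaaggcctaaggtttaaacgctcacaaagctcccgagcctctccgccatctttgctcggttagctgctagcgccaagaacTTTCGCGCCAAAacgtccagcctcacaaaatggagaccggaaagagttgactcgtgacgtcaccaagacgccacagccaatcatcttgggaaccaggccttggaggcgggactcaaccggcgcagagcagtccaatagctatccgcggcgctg
Mcm6, chr1:128359706-128359955, minus strand: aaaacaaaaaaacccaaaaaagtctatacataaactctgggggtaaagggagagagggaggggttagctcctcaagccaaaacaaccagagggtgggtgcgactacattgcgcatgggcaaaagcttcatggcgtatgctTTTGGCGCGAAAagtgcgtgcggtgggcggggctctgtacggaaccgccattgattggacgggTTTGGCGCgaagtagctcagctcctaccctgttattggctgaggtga
Mcm7, chr5:138171884-138172133, minus strand: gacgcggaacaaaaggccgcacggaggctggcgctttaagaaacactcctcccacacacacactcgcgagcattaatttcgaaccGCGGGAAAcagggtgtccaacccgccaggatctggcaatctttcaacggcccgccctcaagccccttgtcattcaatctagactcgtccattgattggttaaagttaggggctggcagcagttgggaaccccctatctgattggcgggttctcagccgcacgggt
In *Mcm5* a pair of matches on opposite strands overlap, beginning 153 and 149 bases before the start. In *Mcm6* the same arrangement lies 110 and 106 bases before it, with a further match at 47. The *Mcm7* match lies 165 bases before the start of 1 of its 2 windows. Both *Cdc6* and *Pola1* (DNA polymerase alpha, catalytic subunit) have theirs at 138, while those of *Gins3*, *Orc1l* and *Rfc3* lie at 41, 27 and 10. The CCAAT box bound by NF-Y, searched as CCAAT, was in 54.5% of the members' windows and 33.8% of all windows, and in 10 of the 13 helicase windows. The cell cycle homology region, searched as TTTGAA, was in 13.6% against 16.0%. The Meis motif TGACAG was in 9.09% of the members' windows, those of *Cdc7*, *Lig1*, *Rfc5* and *Tyms*, and in 15.9% of all windows. These are letter matches in fixed windows, with no test.

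The 4 arrays were hybridised on 2 slides, each with 1 array of each genotype, so a difference can also be read within a slide. The second Meis1-KO array was the dimmest, with 49.2% of its spots well above background against 54.7% to 57.4% on the other 3, and a 75th percentile signal of 90.3 against 147 to 154. The brightest *Meis1* probe, whose place relative to the deleted exon was not checked, read 0.28 and 0.24 on the Meis1-KO arrays and 1.04 and 1.47 on the Meis1-WT arrays, on the log2 scale centered on each array's 75th percentile that is used for every level here. It differed by -0.998 (limma unadjusted p = 0.0603), and the other *Meis1* probe was also lower on both Meis1-KO arrays but not well above background on the second (-1.70, limma unadjusted p = 0.0186, and -0.27 with normexp background correction). Normexp was run with an offset of 50 added to every signal, which shrinks the log2 differences of dim probes by construction. All 12 LSK markers, among them *Kit* and *Ly6a* (Sca-1), were well above background on all 4 arrays. So were some markers of mature lineages, 9 of 12 for erythroid cells, 7 of 11 for granulocytes and monocytes, 5 of 11 for B lineage and plasma cells and 1 of 8 for T cells.

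All 45 replication genes were detected well above background on all 4 arrays, and none met the study's criteria of an unadjusted p under 0.01 and a difference of more than 2-fold. Among 22000 tested probes, 30 met them as higher in Meis1-KO (0.136%) and 132 as lower (0.600%). No member had an unadjusted p under 0.05, against 618 of all tested probes (2.81%), and the members' adjusted p-values ran from 0.983 to 0.999. The smallest p belonged to *Tyms* (limma, unadjusted p = 0.116). With the slide as a term of the fit, again none of the 45 had a p under 0.05, against 5.93% of tested probes. The exact permutation test of a single gene could not go below p = 0.333 with 2 arrays per genotype, two-sided.

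Most of the replication genes lay slightly higher in Meis1-KO, though no single gene passed the test. On average over the slides 40 of 45 were higher in Meis1-KO, against 56.3% of all tested probes, and their median difference was 0.34 log2 units against 0.08 for all tested probes. In size the differences were modest, with 6 genes more than 1.5-fold higher, the largest at 1.77-fold, and *Rfc1* the sole member that differed by more than 2-fold. The 95% confidence interval of every gene included 0, and reached a median of 1.12 log2 units to either side. For 42 genes a 2-fold rise lay inside the interval, and for 11 a 2-fold fall. Higher values on both slides were seen for 33 members, where 30.3% of all tested probes did so, and lower values on both for 3, *Orc2l*, *Cdc6* and *Pole*, where 20.9% of all tested probes did so. The 4 arrays separated completely by genotype for 12 members with Meis1-KO above, against 16.0% of tested probes, and for 1, *Pole*, with Meis1-KO below, against 10.8%.

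The shift was uneven between the slides. The median of the 45 genes was 0.14 on slide 1 and 0.50 on slide 2, where all tested probes stood at 0.03 and 0.13. The second Meis1-KO array gave the highest of the 4 values for 35 members, the first for 5, the first Meis1-WT array for 1 and the second for 4. Over all tested probes these shares were 44.8%, 18.9%, 17.7% and 18.6%. The difference was larger in size on slide 2 for 39 of 45 members, where 75.3% of all tested probes did so. Across the 45 genes the differences on the 2 slides, which share no array, correlated at r = 0.08 (rho = 0.11), and at r = 0.10 without *Rfc1*. The size of a gene's difference on 1 slide therefore said little of its size on the other. Without the second Meis1-KO array the members' median was 0.03 and equaled that of all tested probes, 0.03, and without the first it was 0.59 against 0.17. The fit without the second sets the first Meis1-KO array, from slide 1, against Meis1-WT arrays of both slides. The second Meis1-WT array read higher than the first by a median of 0.14 for the members and 0.03 for all tested probes. Within a slide, 39 of 45 members were higher in Meis1-KO on slide 1 and 36 on slide 2. Of 22000 tested probes, 11786 and 12282 were.

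**Figure D1:**
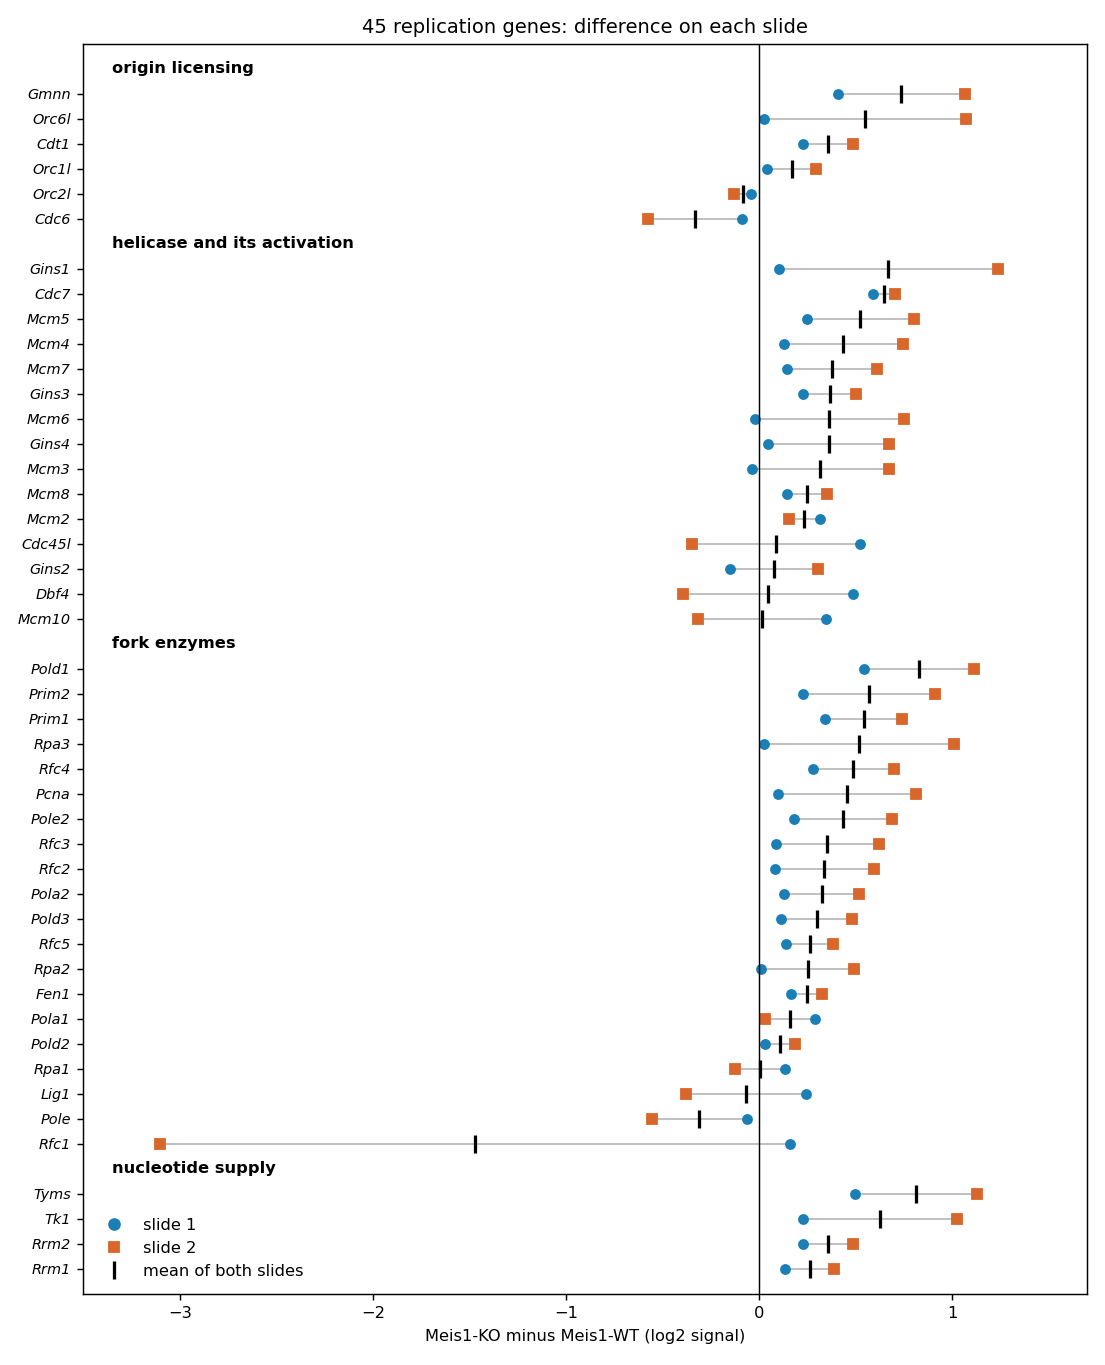
Difference between Meis1-KO and Meis1-WT on slide 1 (circles), on slide 2 (squares) and their mean (bars) for each of the 45 genes by role, on the log2 scale. Most genes lie a little above 0 on slide 1 and farther above it on slide 2, with medians of 0.14 and 0.50, and *Rfc1* stands far to the left on slide 2.

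Of the 6 origin licensing genes, 4 were higher and 2 lower in Meis1-KO, with a median difference of 0.26 (0.03 on slide 1 and 0.39 on slide 2), and none passed the test. *Gmnn*, the inhibitor of Cdt1 that prevents a second round of licensing, read 3.22 and 4.34 on the Meis1-KO arrays and 2.82 and 3.27 on the Meis1-WT arrays. The groups overlapped, and the difference was 0.74 ± 0.54 (SE, n = 2 per genotype, limma unadjusted p = 0.220). *Orc6l*, a subunit of the origin recognition complex, read 2.80 and 3.98 against 2.77 and 2.91, a difference of 0.55 ± 0.54 that came almost wholly from the second Meis1-KO array, as slide 1 gave 0.03 and slide 2 gave 1.07. For *Cdt1*, the loading factor itself, both Meis1-KO values (2.55 and 2.64) lay above both Meis1-WT values (2.33 and 2.16), 0.36 apart on average. The other *Orc* genes lay closer to 0, with *Orc1l*, the largest subunit, at 0.17 and *Orc2l* at -0.09. *Orc2l* read 1.36 and 1.14 in Meis1-KO and 1.40 and 1.27 in Meis1-WT. *Cdc6*, the ATPase that works with Cdt1, read -0.10 and 0.12 in Meis1-KO and -0.01 and 0.70 in Meis1-WT, a difference of -0.33 ± 0.47. Its second probe gave 0.52 in the opposite direction, so the sign for *Cdc6* depended on the probe.

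All 15 genes of the helicase and its activation had a mean difference above 0, with a median of 0.36 (0.14 on slide 1 and 0.61 on slide 2). Of the 15, 9 were higher on both slides. Without the second Meis1-KO array the median of the 15 was 0.03, and 10 of them were higher. The 6 genes of the Mcm ring lay between 0.23 and 0.52 with a median of 0.37. Their slide 1 median was 0.14 and their slide 2 median 0.71. *Mcm2* read 1.54 and 1.99 on the Meis1-KO arrays and 1.23 and 1.84 on the Meis1-WT arrays, and was higher by 0.31 on slide 1 and 0.15 on slide 2. *Mcm3* read 5.27 and 6.07 against 5.31 and 5.40. *Mcm4* read 6.06 and 6.60 against 5.93 and 5.85, and its arrays separated by genotype. For *Mcm3* the groups overlapped, with differences of -0.04 on slide 1 and 0.67 on slide 2, but its second tested probe read 2.52 and 2.82 against 2.203 and 2.32, higher on both slides and with the groups apart. *Mcm5* read 3.38 and 4.41 against 3.13 and 3.61, the largest difference of the ring at 0.52 ± 0.53 (SE, limma unadjusted p = 0.358). *Mcm6* read 8.38 and 9.33 against 8.41 and 8.58, with differences of -0.02 on slide 1 and 0.75 on slide 2. *Mcm7* read 6.57 and 7.27 against 6.43 and 6.66. The 6 ring genes thus lay between -0.04 and 0.31 on slide 1 and between 0.15 and 0.80 on slide 2, where *Mcm2* was the lowest.

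**Figure D2:**
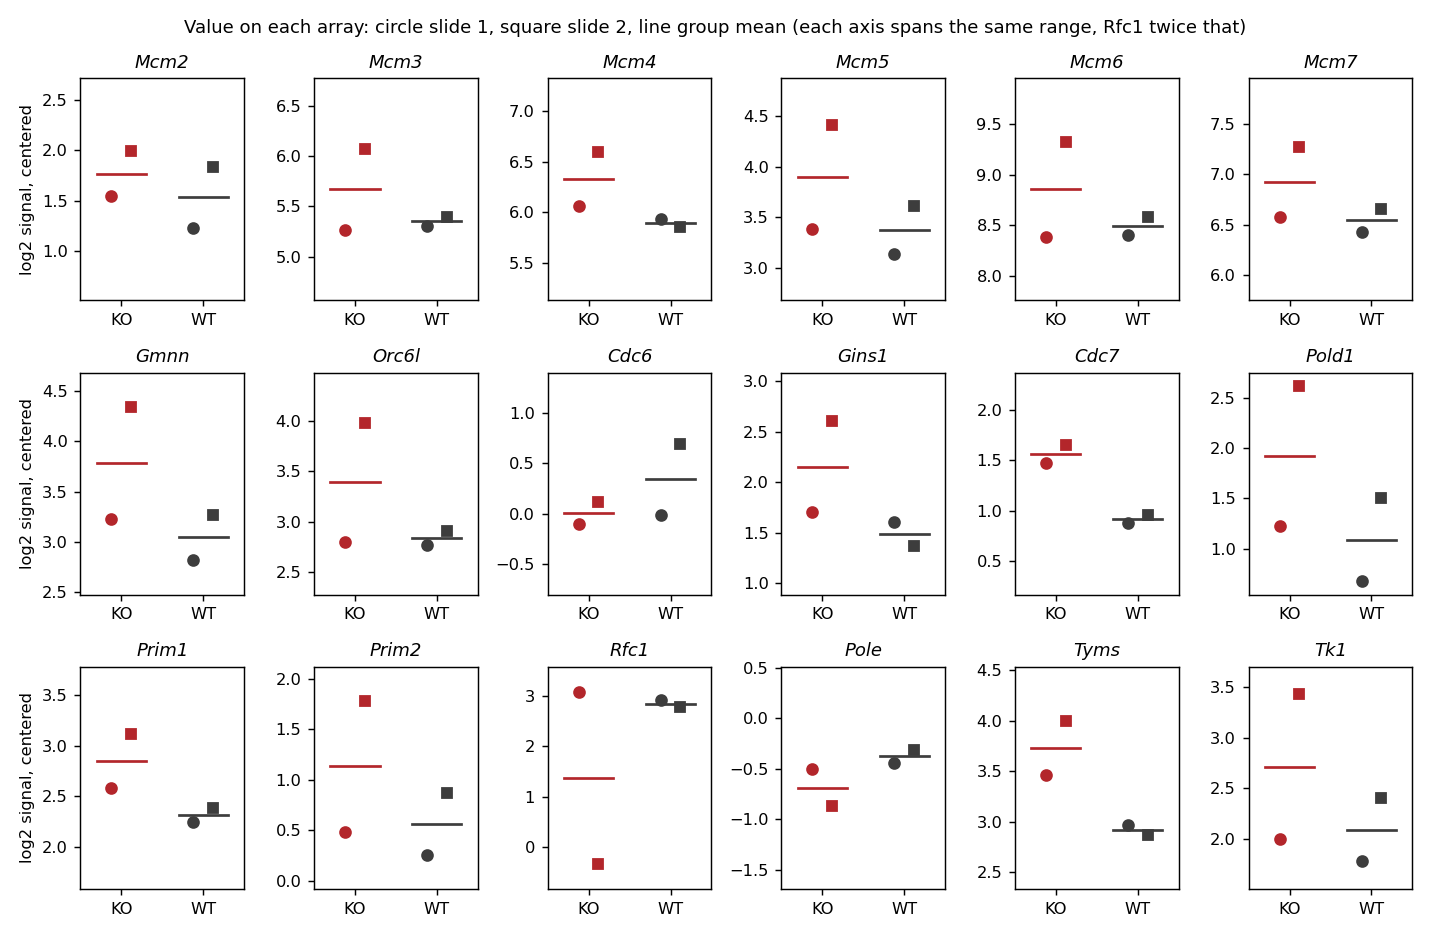
Values on each array for the 6 Mcm ring genes and 12 other replication genes named in the text, as log2 signal centered on the array's 75th percentile; red marks Meis1-KO, grey Meis1-WT, circles slide 1, squares slide 2 and lines the group means. The Meis1-KO square is the top point in most panels, at 4.41 for *Mcm5* and 9.33 for *Mcm6*, and the bottom one for *Rfc1*, at -0.33.

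Among the activators, *Cdc7*, the kinase that fires licensed origins, was the most even between slides. It read 1.47 and 1.66 in Meis1-KO and 0.88 and 0.95 in Meis1-WT, so both groups were tight and apart. Its difference was 0.65 ± 0.42 (95% confidence interval -0.38 to 1.67), with an unadjusted p = 0.174 by limma, which borrows a spread from all probes. It was also the sole member under 0.05 by the methods' t-test (unadjusted p = 0.0221), which takes the spread of the 4 values alone and put 2.42% of all tested probes under 0.05. A second tested *Cdc7* probe gave 0.32. *Dbf4*, its regulatory partner, differed by 0.05, with 0.49 on slide 1 and -0.39 on slide 2, and its second tested probe by -0.41. *Gins1*, a GINS subunit, read 1.71 and 2.60 against 1.60 and 1.37, and differed by 0.67 ± 0.49, with 0.10 on slide 1 and 1.23 on slide 2. Its second probe lay at 0.82. The rest of GINS was smaller, with *Gins3* and *Gins4* at 0.36 each and *Gins2* at 0.08. *Cdc45l*, which joins GINS on the ring, *Mcm10*, a scaffold that stabilises it, and *Dbf4* were higher on slide 1 and lower on slide 2, by 0.52 and -0.35 for *Cdc45l* and by 0.34 and -0.31 for *Mcm10*. *Mcm8*, a related helicase outside the ring, was at 0.25.

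Of the 20 fork enzymes, 17 were higher and 3 lower in Meis1-KO, with a median of 0.31 (0.14 on slide 1 and 0.51 on slide 2). *Pold1*, the catalytic subunit of polymerase delta, had the largest positive difference of the 45 genes by their brightest probes. It read 1.22 and 2.61 on the Meis1-KO arrays against 0.68 and 1.50 on the Meis1-WT arrays, 0.83 ± 0.62 (SE, limma unadjusted p = 0.230). Both genotypes read higher on slide 2, so the ranges overlapped although both slides gave a positive difference (0.54 and 1.11). A second tested *Pold1* probe gave 0.51, with 0.10 on slide 1, and without the second Meis1-KO array the first gave 0.13. The other delta subunits lay lower, *Pold2* at 0.11 and *Pold3* at 0.30, and the other 2 tested probes of *Pold3* gave -0.10 and -0.20. The primase genes, whose enzyme makes the RNA primers, followed, and *Prim1* read 2.58 and 3.12 against 2.24 and 2.38, with all 4 arrays apart by genotype. *Prim2* read 0.49 and 1.78 against 0.26 and 0.87, with overlap. Their partners in the polymerase alpha complex were at 0.16 (*Pola1*) and 0.32 (*Pola2*). Of polymerase epsilon, the leading strand enzyme, *Pole2* was at 0.43 while the catalytic *Pole* was lower on every Meis1-KO array, at -0.50 and -0.87 against -0.44 and -0.31, a difference of -0.31 ± 0.43.

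The clamp *Pcna* differed by 0.46 and 4 of the 5 genes of its loader, replication factor C, by 0.26 (*Rfc5*), 0.34 (*Rfc2*), 0.35 (*Rfc3*) and 0.49 (*Rfc4*). *Rfc1*, the large subunit of the same loader, was low on 1 array. It read 3.07 on the first Meis1-KO array and -0.33 on the second, against 2.91 and 2.77 on the Meis1-WT arrays. That is a difference of 0.16 on slide 1 and -3.10 on slide 2, and of -1.47 ± 1.05 over both (limma unadjusted p = 0.211, and 0.0663 with the slide as a term). It was the smallest p of the 45 genes with the slide as a term. Without the first Meis1-KO array *Rfc1* differed by -3.17. That fit sets the single low Meis1-KO array against 2 Meis1-WT arrays, and assumes that it varies as they do. Without the second Meis1-KO array the difference was 0.23. Its only probe, at chr5:65653207-65653266 (mm9), was well above background on all 4 arrays. The single-stranded DNA binding genes *Rpa1*, *Rpa2* and *Rpa3* were at 0.00, 0.25 and 0.52, and of the enzymes that process Okazaki fragments, the flap nuclease *Fen1* was at 0.25 and DNA ligase I, *Lig1*, at -0.07.

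All 4 nucleotide supply genes were higher in Meis1-KO on both slides, with a median of 0.49 (0.23 on slide 1 and 0.75 on slide 2), and none passed the test. *Tyms*, thymidylate synthase, read 3.46 and 4.00 on the Meis1-KO arrays and 2.97 and 2.87 on the Meis1-WT arrays, so the groups were apart. The difference was 0.81 ± 0.44 (SE, 95% confidence interval -0.27 to 1.89), or 1.76-fold, and a second tested probe gave 0.83 (limma unadjusted p = 0.113). *Tk1*, the salvage thymidine kinase, read 2.00 and 3.43 against 1.78 and 2.41, 0.62 ± 0.61. *Rrm2*, the small subunit of ribonucleotide reductase that limits its activity in S phase, read 2.18 and 2.81 against 1.95 and 2.32. Its large subunit *Rrm1* was at 0.26.

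The 45 genes had 65 probes on the array, of which 57 were tested. Besides the 45 brightest probes these were 12 further ones, 9 higher and 3 lower in Meis1-KO, and no probe had a p under 0.05. Among the 11 genes with several tested probes, the probes of *Cdc6*, *Dbf4* and *Pold3* disagreed in sign, and those of the other 8 did not.

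Other replication and division genes were compared in the same way. Of 39 further replication genes, 27 were higher and 12 lower, with a median of 0.33 and none with a p under 0.05. The smallest p-values belonged to *Dtymk* (thymidylate kinase), which read 3.39 and 4.73 against 3.22 and 3.37, to *Rrm2b* (the reductase subunit used outside S phase), which read 0.85 and 1.52 against 0.63 and 0.54, and to *5730590G19Rik*, which read 0.98 and -3.36 against 0.64 and 0.39. In the last the second Meis1-KO array alone was low and, unlike for *Rfc1*, not well above background there, and with normexp its difference of -1.70 became -0.58. Of 15 mitosis markers, 11 were higher and 4 lower with a median of 0.25, again with no p under 0.05, and all 15 were higher on slide 1 (median 0.38) against 9 on slide 2 (median 0.24). *Aurka*, a spindle kinase, read 4.48 and 4.80 against 3.92 and 3.96 and *Ccnb1*, the mitotic cyclin B1, 3.002 and 4.36 against 2.93 and 2.66. *Plk1*, another mitotic kinase, read 0.63 and 1.62 against 0.02 and 0.93. *Cenpe*, a kinetochore motor, read 1.71 and -3.352 against 1.19 and -0.06, and its probe was not well above background on the second Meis1-KO array, so that its difference of -1.39 rests on a dim value and was -0.36 with normexp background correction. *Mki67*, the proliferation marker Ki-67, was at -0.65 and read 4.06 and 0.40 against 3.65 and 2.09. Both were lowest on the second Meis1-KO array, as *Rfc1* was. The median of the mitosis markers was thus the larger on slide 1, where that of the replication genes was the smaller. The 12 LSK markers had a median of 0.04, with 7 higher and 5 lower. They include the deleted gene *Meis1* itself, at -0.998, and *Cd48*, at 0.85.

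**Figure D3:**
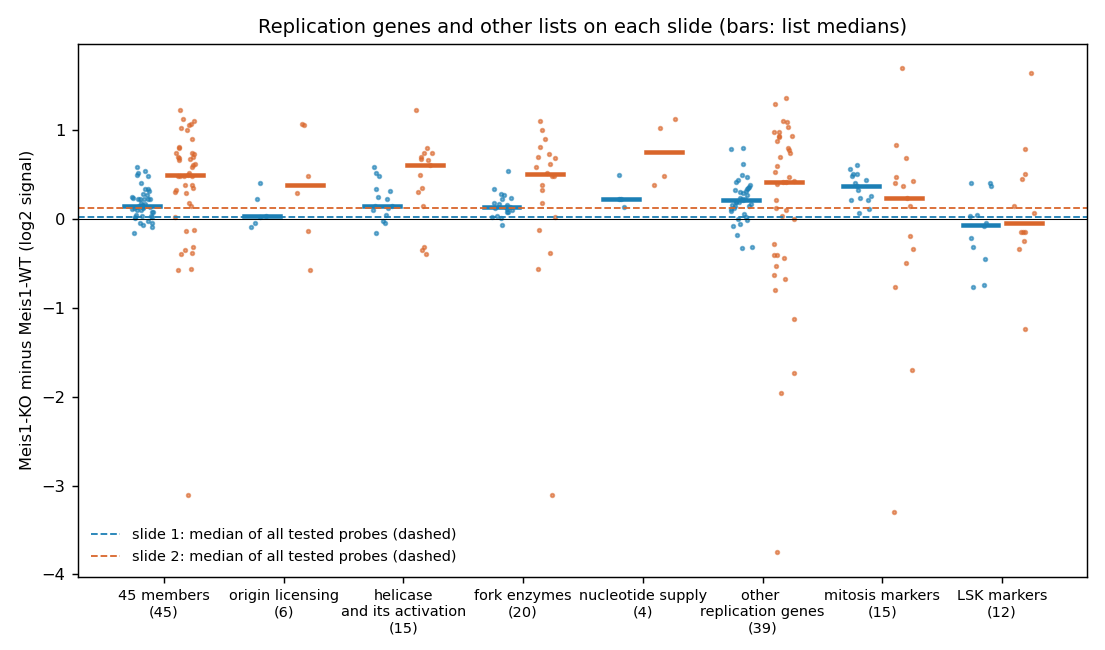
Differences between Meis1-KO and Meis1-WT on slide 1 (blue) and slide 2 (orange) for each gene of the replication group, its roles and 3 other lists, with list medians as bars and the medians of all tested probes as dashed lines. The replication medians of 0.14 and 0.50 lie above the dashed lines at 0.03 and 0.13, and the median of the mitosis markers is 0.38 on slide 1 and 0.24 on slide 2.

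The difference on slide 2 also varied with gene length, over all genes and over the replication genes. Gene spans from the RefSeq table were found for 85.9% of tested probes and all 45 members, and the probes were split into 5 bands of equal number from the shortest genes (band 1) to the longest (band 5). Over all tested probes the slide 2 median fell step by step from 0.47 in band 1 to -0.34 in band 5, while on slide 1 the medians lay between -0.03 and 0.06. The second Meis1-KO array minus the first ran from 0.59 to -0.40 over the same bands, and the second Meis1-WT array minus the first from 0.08 to -0.02. Of the members, 10, 15 and 12 lay in bands 1, 2 and 3. There their slide 2 medians were 0.55, 0.67 and 0.45, against 0.47, 0.28 and 0.17 for all tested probes, and their slide 1 medians were 0.09, 0.23 and 0.21 against -0.03, 0.00 and 0.03. The 5 members of band 4 did not lie above all probes, with a slide 2 median of -0.13 against -0.02 and a slide 1 median of 0.04 against 0.04. The 3 of band 5 had medians of 0.03 against -0.34 on slide 2 and 0.23 against 0.06 on slide 1. *Rfc1*, at 76766 bases, falls in band 5. The part of gene length in the replication genes' shift was not tested.

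**Figure D4:**
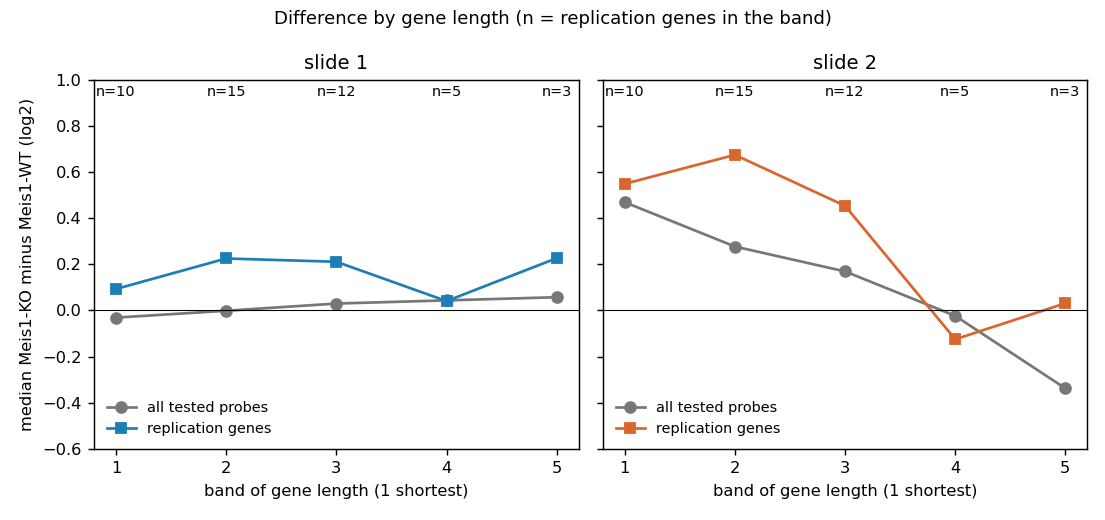
Median difference between Meis1-KO and Meis1-WT (log2) in 5 bands of gene length from shortest to longest, for all tested probes (grey circles) and for the replication genes (squares), on slide 1 and slide 2. On slide 2 the grey line descends from 0.47 to -0.34 and the squares are lower in the 2 longer bands, while on slide 1 the grey line stays between -0.03 and 0.06.

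Markers of mature blood cells differed between the arrays, in both directions. The summed signal of the 12 erythroid markers, relative to the 75th percentile, was 154 and 344 on the Meis1-KO arrays and 139 and 95.4 on the Meis1-WT arrays. *Hbb-b1* (beta globin) alone gave 95.5 and 247 against 80.5 and 22.4 of these, and the other 11 together 58.4 and 96.6 against 58.2 and 73.0. Of the 12, 9 were well above background on all arrays, and of the 10 tested 4 were higher and 6 lower in Meis1-KO. *Rhag*, a red cell membrane protein gene, met the criteria as higher (1.72, limma unadjusted p = 0.00949, adjusted p = 0.983). *Car1*, a carbonic anhydrase of red cells, was lower at -1.77 (limma unadjusted p = 0.0133, and 0.00397 with the slide as a term, where it met the criteria), and *Ermap*, a red cell membrane protein gene, at -1.12 (limma unadjusted p = 0.0389). For both genes the Meis1-KO arrays lay under both Meis1-WT arrays. The 11 granulocyte and monocyte markers on the array summed to 145 and 126 against 121 and 60.5. *Mpo* (myeloperoxidase) alone gave 119 and 83.3 against 95.9 and 47.7 of these, and the other 10 together 25.8 and 42.5 against 25.5 and 12.8. Of the 11, 7 were well above background on all arrays, of the 8 tested 4 were higher and 4 lower, and *Elane*, neutrophil elastase, met the criteria as lower (-1.58, limma unadjusted p = 0.00930, adjusted p = 0.983). *Ms4a3*, of the same list, was higher at 1.63 (limma unadjusted p = 0.0517, and 1.30 with normexp). Both of its Meis1-KO values lay above both Meis1-WT values, by 0.34 on slide 1 and 2.92 on slide 2. With normexp *Rhag* was at 0.84, *Elane* at -0.50 and *Ermap* at -0.48, so that *Rhag* and *Elane* no longer met the criteria. Both genes read under the 75th percentile on all 4 arrays, where the normexp offset shrinks differences by construction. Their loss with normexp therefore does not test the calls. The 11 B lineage and plasma cell markers, 5 of them well above background on all arrays, summed to 17.3 and 35.4 against 54.5 and 25.1, with all 6 tested lower in Meis1-KO. The 8 T lineage markers, 1 of them well above background on all arrays, summed to 2.77 and 1.81 against 2.68 and 3.09, of which *Thy1*, also found on other cells, gave 70.4% to 86.8%. All 3 tested T lineage markers were lower in Meis1-KO, with a smallest limma unadjusted p of 0.0194, and none met the criteria. The defining genes *Pax5*, *Cd3e*, *Cd3g* and *Cd4* were not well above background on any array. The part of other cell types in the replication genes' shift was not tested.

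The size of the shift depended on how the arrays were normalized. As reported, the members' median of 0.34 lay 0.26 over the 0.08 of all tested probes. With quantile normalization the medians were 0.13 and 0.03, a gap of 0.10, and with cyclic loess, which also removes differences that follow brightness, 0.12 and -0.01, a gap of 0.13. In each of these 35 of 45 members were higher in Meis1-KO. With normexp background correction, whose offset shrinks the differences of dim probes, the gap was 0.03, at 0.16 and 0.13. Scaling to the array median, or no scaling, shifts every probe by the same constant, so that the gap of 0.26 is left as it was by construction. The members' median was then 0.42 (41 higher) or -0.04 (16 higher), where all tested probes stood at 0.16 and -0.30. Some ring genes changed sign, as quantile normalization put *Mcm6* at -0.08 and *Mcm7* at -0.01. None of the 45 genes met the criteria in any of these.

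**Figure D5:**
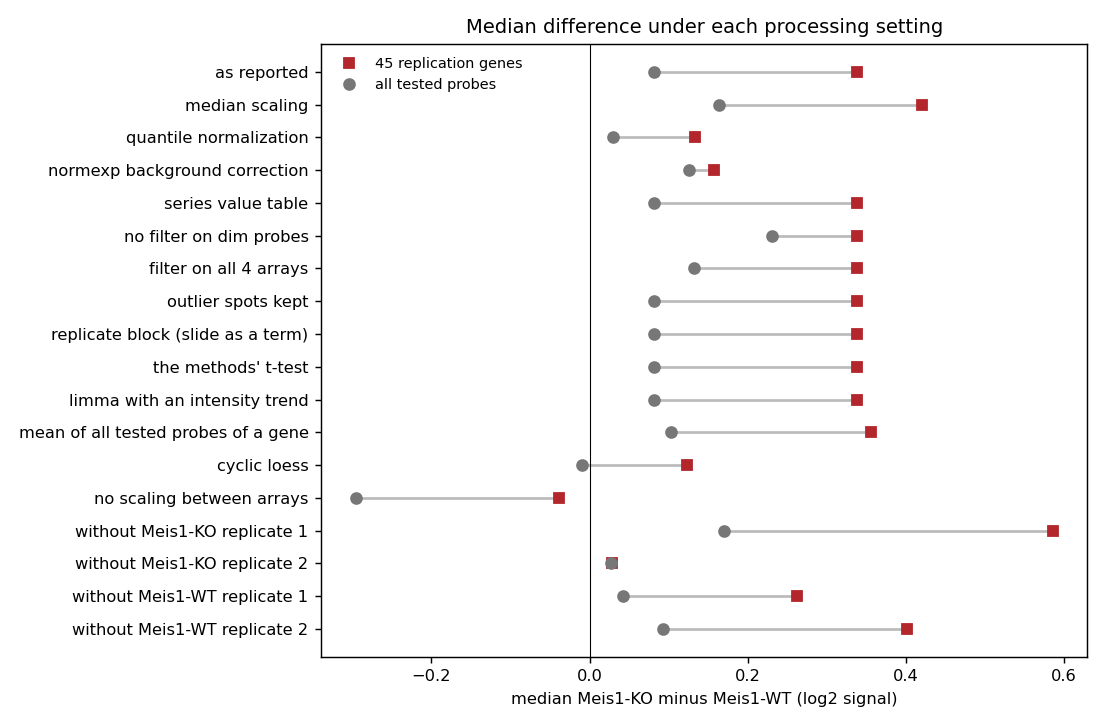
Median difference between Meis1-KO and Meis1-WT (log2) of the 45 replication genes (squares) and of all tested probes (circles) under each processing setting. The squares lie to the right of the circles by 0.26 as reported and by 0.03 with normexp, and the symbols coincide without the second Meis1-KO array.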

How the data were processed

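RNA (10 ng per array) was amplified, labeled with Cy3 and hybridised on one-colour arrays of 60-base probes. The authors deposited Feature Extraction output (version 9.5.3.1 in the file headers, 9.1 in the submitters' processing notes), in which the processed signal is a background-subtracted intensity. A second deposited table, of all 4 arrays, has these values as rounded intensities. Probe positions are those of the array annotation (mm9), and the exon or UTR of a probe was not analysed.

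After removal of control and outlier spots, replicate spots were averaged per probe and log2 values taken relative to the 75th percentile of the array. Tested probes had all their spots well above background on the 2 arrays of either genotype (22000 of 41174 probes). The genotype term was fitted by lmFit with eBayes (limma 3.58.1, R 4.3.3) without the slide, and Benjamini-Hochberg adjustment ran over all tested probes. The criteria, p under 0.01 and more than 2-fold, are the study's. Same-numbered arrays shared a slide, and their deviations correlated at 0.27, so the slide as a term was an alternative. The number of arrays limits the precision. On simulated data of 22000 probes, 85.0% of 200 probes changed by 3 log2 units were called, as were 232 unchanged probes, and with the slide as a term 78.0% and 159. The members' differences, from -1.47 to 0.83, were smaller than that change, so these shares do not give the power at their size. The simulated noise was independent between arrays and had no slide effect, so it cannot compare the fits where slides differ. The real comparison had 162 calls in all. The members and lists were chosen with earlier results of these data known. Values on every array are given for Mcm2 to Mcm7 and, per role, for up to 3 genes with the largest positive and 2 with the largest negative difference. Other alternatives were median scaling, quantile normalization, cyclic loess, no scaling, normexp (offset 50), the series table, other filters, outlier spots kept, an intensity trend, the methods' t-test, the mean over a gene's probes, and each array left out. Cyclic loess and no scaling were added after seeing the data. The length bands were also chosen after seeing the data.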

Additional observations from a re-analysis of the deposited data

How the results depend on the processing

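On arrays, signal over background and the 2 arrays per genotype limit what can be seen. No member met the criteria under any of the 17 alternatives except *Rfc1*, without the first Meis1-KO array, so that 0 to 1 members were called with 1 array left out. Such a fit has 1 array in a genotype and assumes that it varies like those of the other. With the replicate block for slide no member's call changed, while the probes called among all tested went from 162 to 423. They were 47 with normexp, 295 with no filter on dim probes, 53 with detection required on all 4 arrays, 30 with the methods' t-test, 101 with an intensity trend, and 111 to 2251 with 1 array left out, the highest without the first Meis1-KO array. The causes were not tested.

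Without scaling between arrays, which moves every probe by the same amount, the median was -0.039 over all members, -0.12 for licensing, -0.016 for the helicase, -0.066 for fork enzymes and 0.11 for nucleotide supply, and 16 members were higher. With 1 array left out the median ranged from 0.029 to 0.59 over all members, -0.0040 to 0.38 for licensing, 0.029 to 0.70 for the helicase, 0.058 to 0.57 for fork enzymes and 0.055 to 0.88 for nucleotide supply, with the lowest values without the second Meis1-KO array. The members' median less that of all tested probes, 0.26, was 0.031 with normexp, 0.104 with quantile normalization, 0.107 with no filter on dim probes, 0.134 with cyclic loess and 0.0011 to 0.42 with 1 array left out. With quantile normalization, cyclic loess and normexp the median fell to 0.134, 0.124 and 0.157 over all members, 0.117, 0.0931 and 0.135 for the helicase, 0.112, 0.102 and 0.166 for fork enzymes, 0.324, 0.322 and 0.293 for nucleotide supply and 0.204, 0.161 and 0.163 for licensing.

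Some single genes changed sign. Quantile normalization gave -0.035 for *Mcm10*, -0.076 for *Mcm6*, -0.0095 for *Mcm7*, -0.048 for *Pola1* and -0.14 for *Rpa1*. Cyclic loess gave -0.015 for *Gins2*, -0.11 for *Mcm10*, -0.098 for *Mcm6*, -0.072 for *Pola1* and -0.19 for *Rpa1*. Normexp gave -0.030 for *Gins2*, -0.072 for *Mcm10*, -0.045 for *Pola1* and -0.17 for *Rpa1*. Median scaling gave 0.014 for *Lig1*, the series table -0.0011 for *Rpa1*, and the mean over probes 0.092 for *Cdc6* and -0.18 for *Dbf4*. With 1 array left out, the ranges that crossed 0 were -0.37 to 0.55 for *Cdc45l*, -0.68 to 0.021 for *Cdc6*, -0.40 to 0.49 for *Dbf4*, -0.53 to 1.02 for *Fen1*, -0.17 to 0.33 for *Gins2*, -0.013 to 0.73 for *Gins4*, -0.31 to 0.17 for *Lig1*, -0.52 to 0.55 for *Mcm10*, -0.069 to 0.54 for *Mcm2*, -0.082 to 0.72 for *Mcm3*, -0.11 to 0.83 for *Mcm6*, -0.028 to 0.53 for *Mcm8*, -0.033 to 0.37 for *Orc1l*, -0.20 to 0.025 for *Orc2l*, -0.043 to 1.14 for *Orc6l*, -0.031 to 0.35 for *Pola1*, -0.11 to 0.33 for *Pold2*, -0.079 to 1.21 for *Prim2*, -3.17 to 0.23 for *Rfc1*, -0.25 to 0.78 for *Rfc5*, -0.11 to 0.12 for *Rpa1*, -0.058 to 0.56 for *Rpa2*, -0.22 to 1.26 for *Rpa3* and -0.091 to 1.34 for *Tk1*.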
